A study of Mus musculus with 12 samples.

Results

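The first exposure of naive macrophages to lipopolysaccharide (LPS) was followed over all 18193 genes measured, by comparing the 3 arrays of cells that met LPS once with the 3 arrays of untreated cells. The study holds 12 arrays in all, since it also has cells pretreated with LPS and cells pretreated and then restimulated, with 3 biological replicates in each of the 4 groups. All cells were macrophages grown from C57Bl/6 mouse bone marrow in M-CSF, the growth factor that drives marrow precursors to become macrophages. For 18 h the cells of both groups described here were kept without LPS, the medium was changed, and after 2 h of rest 1 group received 100 ng/ml LPS while the other received none. The third group had 100 ng/ml LPS in the first 18 h and none afterwards, and the fourth had it both times. The labels do not say how long the last stimulation ran before the cells were lysed. The replicate letters A, B and C pair the arrays: arrays of one letter deviated together from their group means, also between the untreated and the LPS once arrays, with correlations over genes of 0.429 to 0.651. Marrow cultures in M-CSF can hold other cells, and the labels state neither a sort nor a purity.

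LPS is the outer membrane lipid of Gram-negative bacteria. Macrophages sense it through Tlr4, which signals at the plasma membrane through Myd88 towards NF-kappaB and mitogen-activated protein kinases, and from endosomes through a second adaptor towards interferon regulatory factors and the secretion of type I interferon.

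The defining markers matched the label. All 12 macrophage markers examined had a mean intensity of 100 or more, and their summed intensity was 84561 to 85819 on the untreated arrays and 79593 to 82096 on the LPS once arrays; of them only Mertk was called changed. The 7 mast cell and the 5 natural killer cell markers measured stayed under 50 on all 6 arrays. Fibroblast markers were present and uneven: their summed intensity ran from 580.1 to 13279 on the untreated arrays and from 1193 to 10883 on the LPS once arrays, low in replicate C of both groups. Of the 8 measured, Pdgfrb was called higher, with 95.4, 279 and 14.6 on untreated A, B and C and 326, 764 and 589 on LPS once A, B and C. Neutrophil markers summed to 791 to 4951 without LPS and 2417 to 6059 with it, and none was called. The part of these cells in the results was not tested, and in bulk RNA fewer cells of a type and less RNA per cell cannot be told apart. Signs of RNA quality also differed between arrays. The ratio of the 3′ to the 5′ probe set of Gapdh was 1.31, 1.40 and 1.37 on untreated A, B and C and 1.73, 1.22 and 1.85 on LPS once A, B and C, and the 18S ribosomal probe set read 173, 223 and 353 without and 524, 142 and 572 with LPS, so that LPS once A and C stood above B in both. Their part in the results was not tested.

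Each gene is represented by its brightest probe set, in the linear intensity that the authors deposited. Changes are given as log2(intensity + 16) with LPS once minus untreated, as the mean of the 3 paired differences with its standard error (SE), and fold changes carry the added 16 too, so that those of dim genes come out too small. A value in parentheses after a gene is this log2 change, with ± its SE where the arrays are given. A gene was called when limma's moderated test gave a Benjamini-Hochberg adjusted p under 0.05 and the change was at least 2-fold.

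On this rule 761 genes (4.18% of those tested) rose and 1683 (9.25%) fell, so that 68.9% of the called genes were lower after LPS. Every called gene moved the same way in all 3 pairs. The arrays of the groups did not overlap for 749 of the 761 and for 1672 of the 1683; over all genes, 29.6% had every LPS once array above every untreated array and 27% the reverse. The largest changes were increases. At least 4-fold changes were found for 307 rising and 317 falling genes, at least 8-fold changes for 140 and 76, and at least 32-fold changes for 29 and 3. Over the rising genes the median intensity was 256 without and 1.19e+03 with LPS, and the median log2 change was 1.73. Over the falling genes the median intensities were 421 and 123 and the median log2 change was -1.42. Each median was taken separately, so they do not describe the path of a single gene.

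The excess of repressed genes depended on how the arrays were scaled. The deposited values give the arrays nearly equal medians (29.72 to 31.65), but the 75th percentile of intensity was 199 to 207 on the untreated arrays and 156.1 to 169.1 on the LPS once arrays, and the median change over bright genes (mean intensity of 100 or more) was -0.27. Scaling the arrays to a common 75th percentile gave 1116 higher and 1051 lower genes (6.13% and 5.78% of those tested, 48.5% of the calls lower), quantile normalization gave 874 and 1317 (60.1% lower), and centring on the median bright gene, chosen after seeing the data, gave 1031 and 1150 (52.7% lower). The control transcripts added to the samples by the array protocol, 34 of 42 of them at an intensity of 100 or more, changed by a median of -0.08 on the deposited scale and 0.21 under the 75th percentile scaling. Of the called genes, 756 of 761 higher (4.16% of genes tested) and 1049 of 1683 lower (62.3%, or 5.77% of genes tested) kept their call under both the 75th percentile and the quantile scaling; these are referred to as kept genes, and where not all falling genes of a group were kept, the number kept follows their count in parentheses. The median change over all genes was 0.04 as deposited, 0.02 with quantile normalization, 0.21 with the 75th percentile scaling and 0.27 with the centring.

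**Figure D1:**
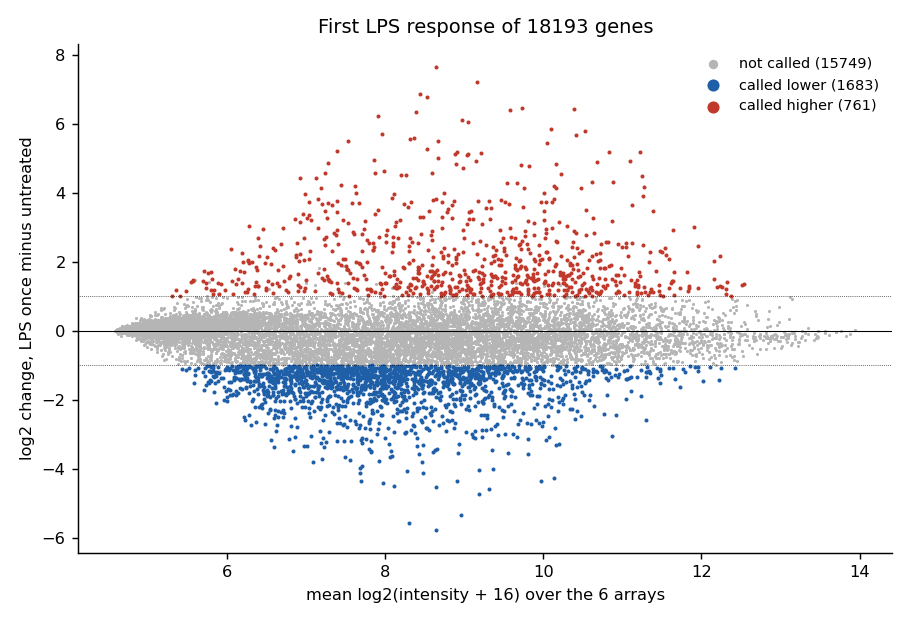
Log2 change (LPS once minus untreated, vertical) against mean log2 intensity over the 6 arrays (horizontal) for all genes, with the 761 genes called higher and the 1683 called lower in colour. On the deposited scale drawn here, rising genes reach much larger changes than falling ones, while falling genes are more numerous among genes of middle intensity.

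Where the repressed genes lie on the intensity scale differed from where the induced genes lie. Among genes with a mean intensity of 100 to 200, 23.1% fell and 6.52% rose; among the brightest genes, at 1600 or more, 6.77% fell and 8.2% rose. Under an intensity of 50 only 0.606% fell and 0.487% rose. Over all bright genes 17.3% fell and 8.0% rose. These shares are on the deposited scale, and the median changes of the classes depended on it. With quantile normalization the median change at 100 to 200 was -0.11 in place of -0.37. At 1600 or more it was -0.22 in place of -0.17.

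**Figure D2:**
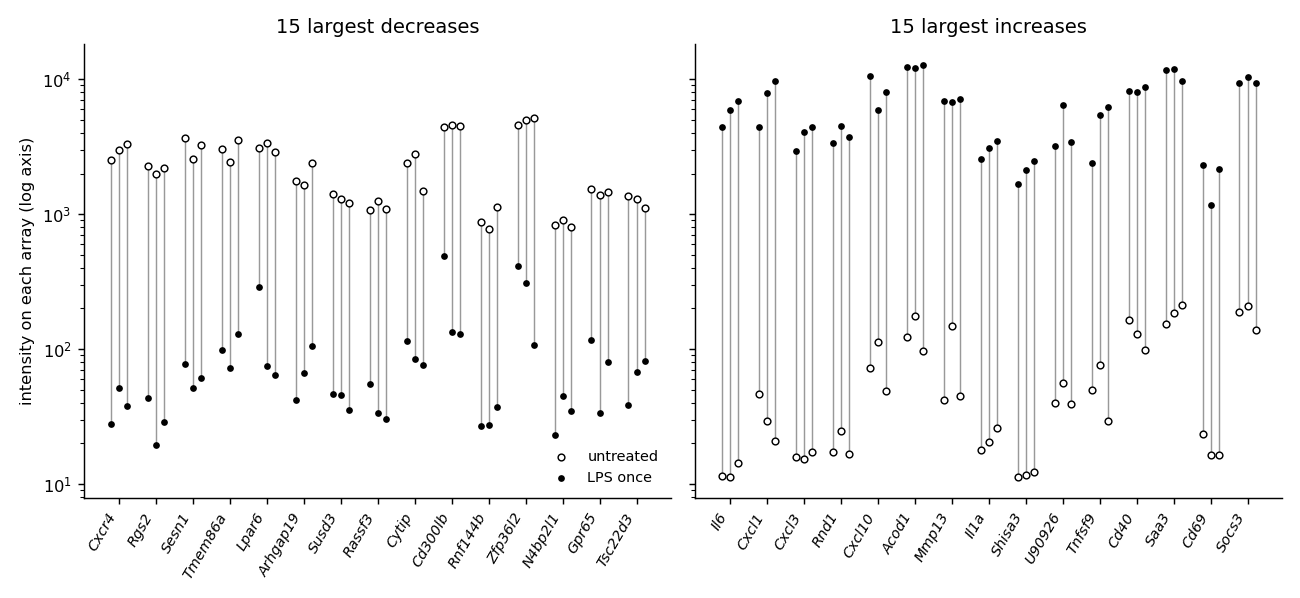
Intensity (log axis) on each of the 6 arrays for the 15 largest decreases and the 15 largest increases among called genes whose groups do not overlap; open symbols are untreated arrays and filled symbols LPS once arrays, and a grey line joins the arrays of a replicate, in the order A, B and C from left to right. The groups are apart for all 30 genes, as the choice requires. Il6 and Shisa3 start near the bottom of the intensity scale without LPS while Cd40 and Socs3 start higher, and with LPS Rgs2 and Rassf3 end near the bottom while Cd300lb and Zfp36l2 keep more signal.

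Secreted signals led the increases. Of 32 cytokines measured 18 rose and 2 (1) fell (median change 1.61, against 0.04 over all genes), and of 29 chemokines 16 rose and 0 fell (1.38). At an unadjusted limma p under 0.05, 2 chemokines were lower. Without the untreated array A, 1 chemokine and 1 cytokine were called lower. The cytokine Il6, which drives the acute phase response of the liver, stood at 11.5, 11.3 and 14.2 on the untreated arrays A, B and C and at 4394, 5878 and 6919 on the LPS once arrays. That is a step from array background to a bright signal in every pair, a log2 change of 7.64 ± 0.48 (SE, n = 3 pairs; limma adjusted p = 4e-05). The neutrophil attractant Cxcl1 went from 46.3, 29.2 and 20.9 to 4431, 7935 and 9749 (log2 change 7.22 ± 0.67), with replicate A the lowest of the LPS once arrays. Its neighbour Cxcl3, which acts on the same receptor, went from 15.9, 15.3 and 17.2 to 2917, 4039.8 and 4443 (6.87 ± 1.00). Cxcl10, which attracts T cells, went from 72.8, 113 and 48.8 to 10536, 5896 and 8094 (6.46 ± 0.47). Among these 4 genes replicate A was the lowest LPS once array for Il6, Cxcl1 and Cxcl3 and the highest for Cxcl10. The falling cytokines were Il16 (-1.60, and -0.44 and not called with the mean of its probe sets) and Tgfb3 (-1.12, not kept; -0.93 and not called without the untreated array A).

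The promoters of these genes show the sequence that NF-kappaB dimers recognise. The kappaB site was searched, on both strands, in 300 bases around each gene's first listed start site (250 before, 50 after) in RefSeq's mouse assembly GRCm38.p6, which gave promoters for 14452 of the genes. The 4 induced genes with the largest changes that hold it are shown, with the site in capitals and each stretch ending at most at the start site: Il6 (chr5:30013010-30013113, plus strand), Cxcl1 (chr5:90891114-90891244, plus strand), Cxcl3 (chr5:90785968-90786098, plus strand) and Cxcl10 (chr5:92348923-92349108, minus strand).
Il6: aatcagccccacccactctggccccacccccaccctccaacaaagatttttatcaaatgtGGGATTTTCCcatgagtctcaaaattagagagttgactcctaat
Cxcl1: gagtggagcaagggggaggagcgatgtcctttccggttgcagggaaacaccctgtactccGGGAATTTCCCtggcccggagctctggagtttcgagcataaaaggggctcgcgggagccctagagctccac
Cxcl3: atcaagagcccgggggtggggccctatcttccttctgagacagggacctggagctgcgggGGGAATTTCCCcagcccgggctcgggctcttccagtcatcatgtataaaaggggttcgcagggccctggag
Cxcl10: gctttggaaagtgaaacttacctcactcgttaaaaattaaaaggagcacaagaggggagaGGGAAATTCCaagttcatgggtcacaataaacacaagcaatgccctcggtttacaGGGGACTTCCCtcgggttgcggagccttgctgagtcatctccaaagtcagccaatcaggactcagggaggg
In Cxcl1 and Cxcl3 the same 11 bases match on both strands in overlapping positions, and the site of Cxcl10 nearest to its start holds 2 overlapping matches. A kappaB site was present in 14.7% of the promoters of rising genes (exact binomial 95% interval 12 to 17.7%), in 9.82% of those of falling genes, in 9.58% of those of bright genes that were not called, and in 9.75% of all promoters. Among cytokines and chemokines that rose it was in 8 of 23 (34.8%). The element that the transcription factor AP-1 binds, TGANTCA on either strand, was found in 8.71% of rising, 4.12% of falling and 6.33% of all promoters. Promoters of bright genes that were not called held it in 4.72%, close to the falling genes. A match describes the letters and does not show that a factor binds there.

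Interferon-induced genes rose almost as a block, 36 of 41 measured with a median change of 2.06, and 1 fell (2 without the LPS once array A). Ifit1, which binds viral RNA, went from 133, 253 and 113 in replicates A, B and C to 7846, 2809 and 4728 (4.77 ± 0.48, SE). Gbp2, a GTPase that attacks the vacuoles of intracellular pathogens, went from 133, 285 and 73.2 to 6518, 3607 and 3743 (4.81 ± 0.34). Rsad2, the antiviral radical enzyme viperin, went from 357, 542 and 347 to 12162, 5368 and 9046 (4.31 ± 0.41). For all 3 the untreated array B was the highest of its group and the LPS once array B the lowest of its group, without any overlap of the groups. That order was general in this list: of the 36 rising members, 34 were highest in LPS once A and 33 lowest in LPS once B, and their median paired difference was 3.29 in A, 1.51 in B and 2.49 in C. Over all 761 rising genes the paired medians were 1.75, 1.66 and 1.83, and 13 of the 18 rising cytokines were lowest in A. LPS once B is also the array with the lowest Gapdh 3′ to 5′ ratio and 18S signal given above. Oasl1 (5.18) and Mx1 (5.0) changed most, 8 of 12 guanylate-binding and immunity-related GTPases rose, and so did 6 of 9 Schlafen genes, a family of growth and antiviral regulators, led by Slfn4 (3.64). The member that fell was Irf8, the interferon regulatory factor that also directs macrophage development, from 2097, 2173 and 2809 to 1017, 486 and 530.2 (-1.84 ± 0.23).

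The element that interferon-activated factors bind, searched on both strands as GAAA, any 2 bases and GAAA again, is shown in capitals for 3 of them: Gbp2 (chr3:142620544-142620662, plus strand), Ifit1 (chr19:34640725-34640873, plus strand) and Rsad2 (chr12:26456503-26456632, minus strand).
Gbp2: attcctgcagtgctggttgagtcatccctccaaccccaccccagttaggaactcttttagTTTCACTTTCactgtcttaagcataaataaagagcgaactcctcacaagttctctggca
Ifit1: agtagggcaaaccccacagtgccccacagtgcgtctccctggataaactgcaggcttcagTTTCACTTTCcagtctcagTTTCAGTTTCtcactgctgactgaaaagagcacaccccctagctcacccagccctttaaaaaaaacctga
Rsad2: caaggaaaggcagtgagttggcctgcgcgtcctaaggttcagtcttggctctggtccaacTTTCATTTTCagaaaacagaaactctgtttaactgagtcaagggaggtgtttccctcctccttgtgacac
Ifit1 holds it in 2 places. It was present in 7.74% of the promoters of rising genes (interval 5.76 to 10.1%), in 1.81% of those of falling genes (1.17 to 2.65%) and in 3.02% of all promoters; of the rising interferon-induced genes 14 of 25 (56%) held it. The promoters also differed in CpG content: a median of 3 CpG in 300 bases for the 23 rising cytokines and chemokines with a promoter, 6 for the interferon-induced genes that rose, 18 for all rising genes, 21 for falling genes and 22 for bright genes that were not called. Promoters with 5 or fewer CpG made up 21% of those of rising genes, 8.1% of those of falling genes and 6.3% of those of bright genes not called. Over all promoters the median was 17 CpG and the share with 5 or fewer was 22.1%, both near the values of rising genes.

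Genes of signal relays and of their brakes were called in both directions, and those of NF-kappaB and the brakes more often higher than lower. Among NF-kappaB subunits, their kinases and inhibitors 9 of 16 rose, led by the subunit Rel (3.22) and the inhibitor Nfkbib (2.49), and the kinase Map3k14 fell (-2.19). Among brakes of Toll-like receptor and cytokine signalling 12 of 29 rose and 2 (1) fell; the latter count was 4 without the LPS once array A and 1 without the untreated array B or C or the LPS once array B. Socs3, which blocks signalling by the Il6 receptor, went from 188, 210.1 and 139 to 9445, 10446 and 9394 (5.66 ± 0.30). Dusp2 (5.13) and Dusp16 (4.20), phosphatases of mitogen-activated protein kinases, and Tnfaip3 (3.91), a deubiquitinase that restrains NF-kappaB, rose with it. The brake that fell most was Inpp5d, described with the lipid phosphatases. Of 47 mitogen-activated protein kinases and upstream signal proteins 10 rose, with Traf1 first (5.11), and 9 (6) fell. Toll-like receptors and their adaptors divided: Tlr1 (1.38), Tlr2 (1.21), Nod1 (1.34) and Myd88 (1.13) rose, while Tlr13 (-2.70), an endosomal sensor of bacterial ribosomal RNA, Tlr8 (-1.49) and the receptor chaperone Cnpy3 (-1.56) fell; without the untreated array A or B, 5 members were called lower.

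Stimulus-induced transcription factors did not move one way. Of 31 listed 11 rose, with Maff (3.86), Csrnp1 (3.08) and Ets2 (2.84) first, and 3 fell (5 without the LPS once array B). Fos, a subunit of AP-1 that is switched on and off within a short time of many stimuli, went from 7143, 5983 and 5542 to 2410.0, 1007 and 428 (log2 change -2.59, limma adjusted p = 0.0109); the untreated arrays were the bright ones, and the LPS once arrays were uneven. Its partner Jun went from 717, 1232 and 1020.5 to 339, 477 and 174 (-1.61 ± 0.31), whereas the family member Junb rose (1.83). The third falling member was Crem (-2.04; -0.76 and not called with the mean of its probe sets). Beside them, the repressor Gfi1 went from 11.7, 13.2 and 13.8 to 435, 1024 and 1218 (4.85 ± 0.26), and of 46 Krueppel-like factors and zinc finger repressors 9 rose and 2 fell.

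Surface proteins, enzymes and matrix genes completed the induced side. Rnd1, which loosens actin contacts, was even across replicates, with 17.3, 24.7 and 16.7 without LPS and 3366, 4479 and 3742 with it (6.76 ± 0.14, limma adjusted p = 5.11e-07). Tnfsf9, a ligand that costimulates T cells, went from 49.5, 75.9 and 29.5 to 2414, 5422 and 6184 (6.06 ± 0.33). Cd40, the receptor through which T cells activate macrophages, went from 164, 129 and 97.8 to 8219, 7997 and 8799 (5.86 ± 0.30). In all 3 genes even the lowest LPS once array was far above the highest untreated array. The costimulatory and coinhibitory ligands counted 8 of 19 rising and 1 falling, the inhibitory ligand Vsir (-2.31). The collagenase Mmp13 (6.39) led integrins, adhesion and matrix genes (11 of 63 higher, 7 (3) lower). The antimicrobial and acute phase proteins had 10 of 22 higher and 0 lower (1 lower at an unadjusted limma p under 0.05), among them Saa3 (5.79), the iron-binding lipocalin Lcn2 (5.15) and the enzyme Acod1 (6.43), which makes itaconate.

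Rising metabolic genes included members of glycolysis, of arginine and nitric oxide metabolism and of nutrient transport. Of 30 glycolysis and hypoxia-induced genes 10 rose and 2 fell (median 0.34); only 1 was called lower without the untreated array A or C or the LPS once array A. Pfkfb3, whose product makes the activator of the glycolytic enzyme phosphofructokinase, went from 289.6, 312 and 378 to 6795, 6655 and 4712 (4.14 ± 0.22), while its relative Pfkfb4 fell (-2.08). The glucose transporter Slc2a1 rose (2.22). Arginine, nitric oxide and polyamine genes counted 5 of 18 higher and 0 lower (6 lower at an unadjusted limma p under 0.05), with the arginine transporter Slc7a2 (4.83) and Gch1 (3.48), which makes the cofactor of nitric oxide synthase. The cystine transporter Slc7a11 went from 29.8, 27 and 37.7 to 1634, 2638 and 2719 (5.60 ± 0.70). Ribosome biogenesis also leaned upwards, with 10 of 71 higher and 1 lower (median 0.34), as in the nucleolar protein Nop58 (1.72), but without the LPS once array C only 3 members were called higher, and under the 75th percentile scaling 19 were. None of the 46 cytosolic ribosomal proteins was called (median -0.15); at an unadjusted limma p under 0.05, 22 were lower and 2 higher, against 45.1% and 19.4% of all bright genes.

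On the repressed side, receptors that guide a macrophage or sense its surroundings included the gene with the largest decrease and others further down the order. Cxcr4, the receptor that holds cells in the bone marrow, had the largest decrease of all genes: 2525, 2975 and 3319 on the untreated arrays and 27.8, 51.9 and 38.2 on the LPS once arrays, a log2 change of -5.76 ± 0.38 (SE; limma adjusted p = 5e-05). In each pair a bright signal dropped to near the background of the array. Lpar6, a receptor for lysophosphatidic acid, went from 3094, 3344 and 2873 to 289.5, 74.6 and 64.6 (-4.57 ± 0.39). Gpr65, a sensor of extracellular acid, went from 1533, 1394 and 1464 to 116, 33.7 and 80.2 (-4.11 ± 0.24). In both, replicate A kept the most signal after LPS, still far under every untreated array. Gpr183, a receptor for oxysterols that guides immune cells in lymphoid tissue, went from 1499, 1052 and 1020.4 to 81.8, 69.6 and 107 (-3.56 ± 0.34), while Ch25h, which makes the precursor of its ligand, went the other way, from 45, 47 and 115 to 2479, 2034 and 4248 (5.13 ± 0.30). The fractalkine receptor Cx3cr1 went from 2157, 1125 and 1763 to 358, 80.2 and 183 (-3.09 ± 0.37).

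Both receptor lists held members of either direction. Chemoattractant receptors counted 3 of 23 higher, led by the formyl peptide receptor Fpr2 (4.56) and Ccrl2 (4.27), and 5 lower, among them the sphingosine phosphate receptors S1pr1 (-2.07) and S1pr2 (-1.86). Receptors for metabolites, nucleotides and hormones counted 8 of 46 higher and 12 (10) lower. Rising ones included Hcar2 (5.56), which senses hydroxybutyrate and nicotinic acid, and Gpr84 (3.49), which senses fatty acids of medium length. The falling ones included the ATP-gated channel P2rx7, from 982, 833 and 835 to 109, 55 and 43 (-3.47 ± 0.28), and the cannabinoid receptor Cnr2, from 262, 306 and 319 to 13.7, 12.8 and 16.6 (-3.36 ± 0.20). For these 2 receptors, too, no LPS once array came near an untreated array.

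Behind the receptors, the regulators of G protein signalling more often fell than rose: 17 (12) of 54 fell and 3 rose (median -0.45). Rgs2, which shortens signals by speeding GTP hydrolysis on G protein alpha subunits, went from 2274, 1992 and 2214 to 43.5, 19.6 and 28.9 (-5.57 ± 0.24). Arrb1, a beta-arrestin that uncouples and internalises receptors, went from 936, 870.0 and 937 to 90.7, 97.8 and 125 (-2.96 ± 0.22). Cyclic nucleotide phosphodiesterases moved in opposite directions. Pde3b went from 1256, 1858 and 1189 to 198, 277 and 273 (-2.44 ± 0.33), whereas Pde4b, the isoform tied to inflammatory cells, went from 375, 387 and 236 to 2780.3, 3150.2 and 3504 (3.21 ± 0.22). The regulator Rgs18 (-2.27) and the adenylate cyclase Adcy9 (-2.01), which makes cyclic AMP, also fell.

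Genes that act on Ras and Rab GTPases were also among the falling ones. Rassf3, a Ras-association domain protein, went from 1072, 1254 and 1087 to 55.1, 33.7 and 30.4 (-4.39 ± 0.37). Rasa3, which turns Ras and Rap off, went from 1326, 1359 and 1236 to 88.4, 199 and 69.2 (-3.41 ± 0.26). For both the highest LPS once array was far below the lowest untreated array. Tbc domain genes, which turn Rab GTPases off, counted 10 (8) of 31 lower and 1 higher, none without the untreated array A or the LPS once array C (median -0.53).

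In phosphoinositide signalling, lipid phosphatases and scaffolds were among the falling genes. Of 57 genes listed 13 (7) fell and 5 rose; under the 75th percentile scaling 7 fell and 9 rose. Inpp5d, also called Ship1, which removes the lipid product of phosphoinositide 3-kinase, went from 3619, 3400.3 and 3912 to 220.1, 374 and 578 (-3.27 ± 0.27). That is a drop in each pair, and replicate A went lowest. The kinase Sgk1 (-2.19), the scaffold Gab3 (-1.92) and the myotubularin Mtmr10 (-2.25) fell, and the regulatory subunits divided, with Pik3r2 (-1.55) lower and Pik3r5 (1.30) and Pik3r6 (1.61) higher. Mknk2, the kinase that phosphorylates the cap-binding translation factor downstream of mitogen-activated kinases, went from 2365, 2713 and 2784 to 130.4, 166 and 155 (-3.99 ± 0.18).

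Genes that restrain growth when nutrients are scarce were among those that fell. Among Foxo factors, sestrins and nutrient-sensing regulators 14 (12) of 48 fell and 2 rose (median -0.51); without the LPS once array A, 6 were called higher. Sesn1, a sestrin that keeps the growth kinase mTORC1 off when leucine is lacking, went from 3687, 2563 and 3249 to 77, 51.4 and 61.2 (-5.33 ± 0.24). Tsc22d3, a glucocorticoid-induced brake on inflammation, went from 1361, 1295 and 1102 to 38.3, 67.1 and 81.5 (-4.05 ± 0.40). Foxo3, a transcription factor held out of the nucleus by Akt, went from 827, 877 and 834 to 104, 197 and 99.2 (-2.59 ± 0.28). The folliculin complex at the lysosome lost Flcn (-2.33) and Fnip2 (-1.76). Ddit4, which restrains mTORC1 under hypoxia and stress, ran against the list, from 109, 203 and 38.9 to 549, 2667 and 912 (3.29 ± 0.35). The replicates were uneven for Ddit4, with B the highest in both groups, but every LPS once array lay above every untreated one.

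Several transcription factors of the macrophage lineage were among the falling genes, and Spi1 was not called. Of 59 lineage factors and nuclear receptors 14 (13) fell and 4 rose (median -0.38). Cebpa, which directs myeloid commitment, went from 2998, 2666 and 3745 to 333, 251 and 446 (-3.16 ± 0.39). Rxra, the partner of many nuclear receptors, went from 585, 664 and 641 to 35.6, 60 and 65 (-3.24 ± 0.30; -0.99 and not called with the mean of its probe sets). Mef2c, a factor of myeloid and muscle development, went from 776, 619 and 589 to 60.5, 76.7 and 70.2 (-2.99 ± 0.34). Tal1 (-2.45), Fli1 (-2.36), Lmo2 (-2.01) and the lipid-sensing receptor Pparg (-2.10) followed. Spi1, which encodes PU.1, stood at 2516, 2452 and 2543 without and 3944, 3891 and 4029.9 with LPS, and its change of 0.66 did not reach 2-fold. The risers were Gfi1, Tfec (3.50), Etv3 (1.21) and the glucocorticoid receptor Nr3c1 (1.16; 0.92 and not called without the LPS once array B).

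Zinc finger genes were numerous among the repressed, in a series that is itself large. In the Zfp, Zkscan, Zscan and Zik series, 357 measured, 60 (31) fell and 8 rose, and of 40 BTB domain zinc finger genes 10 (6) fell and 1 rose. Many of them encode DNA-binding repressors. The 60 falling genes were 16.8% of the Zfp, Zkscan, Zscan and Zik series, against 9.25% of all genes and 17.3% of bright genes. Of the 142 bright members of that series 38 fell. Chromatin-modifying enzymes gave 21 (12) of 119 lower and 9 higher (17.6% and 7.6%). These shares were close to the 17.3% and 8.0% over all bright genes, to which most of the members belong. The DNA methyltransferase Dnmt1 went from 856, 804 and 959.6 to 139.6, 156 and 151 (-2.43 ± 0.22). The histone deacetylase Hdac5 went from 787, 896 and 826 to 83.7, 138 and 119 (-2.74 ± 0.18). The lysine methyltransferase Setd7 went from 671, 828 and 574 to 89.5, 153 and 39.7 (-2.81 ± 0.26). Against these, the demethylase Kdm6b, known for its induction by LPS, went from 141, 118 and 98.6 to 466, 845 and 979 (2.47 ± 0.29), and Tet2 (1.79), which oxidises methylated cytosine, and the demethylase Kdm4a (2.33) rose.

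The proteins that destroy short-lived messages split inside a single family. Zfp36l2 went from 4611, 4981 and 5172 to 409.7, 308 and 107 (-4.26 ± 0.38), whereas Zfp36, which binds the same AU-rich elements, went from 3468, 2959.6 and 2989 to 6604, 8354 and 8023 (1.28 ± 0.19). Without LPS the 2 genes were thus both well expressed, and after it they diverged in every pair. Zfp36l1 fell (-1.67), a call that was lost on leaving out any 1 of the 6 arrays other than LPS once B, with changes of -1.71 to -1.30. The ribonucleases Zc3h12a (2.44) and Zc3h12c (3.55) rose. In all, 7 (4) of 29 mRNA decay regulators fell and 3 rose, and under the 75th percentile scaling 4 fell and 6 rose. Tnrc6b, which carries out silencing by microRNAs, was among the 40 largest decreases (-3.72).

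DNA replication and repair genes were lower without an exception among the called members. Of 59 replication and licensing genes 18 (9) fell and none rose (median -0.70), and of 91 repair and damage signalling genes 23 (16) fell and none rose (-0.36); at an unadjusted limma p under 0.05, 1 and 4 members were higher. Gmnn encodes geminin, which keeps Cdt1 from licensing origins again, and went from 767, 661 and 718 to 74.6, 52.5 and 33.8 (-3.43 ± 0.22). Cdt1 itself went from 969, 1024 and 1328 to 177, 137 and 189 (-2.61 ± 0.19). The helicase subunit Mcm7 went from 1090.2, 817 and 724 to 255, 294 and 187 (-1.77 ± 0.20). Both partners of the licensing switch thus fell in all pairs. The sliding clamp Pcna, at 6024, 4528 and 6273 without and 4379.9, 3526 and 4347 with LPS, was not called (change -0.45, limma adjusted p = 0.101). In repair, the checkpoint kinase Chek2 went from 306, 253 and 327 to 28.3, 27.2 and 32.4 (-2.77 ± 0.29), and the damage sensor Xpc from 257, 263 and 306 to 34.7, 21.2 and 27.1 (-2.75 ± 0.17). Of 60 mitosis genes 6 (4) fell, among them Cdc25b (-2.13), and only Mki67 rose (2.51), on the only probe set measured for it. Of 49 cyclins, their kinases, inhibitors and E2F factors 7 (5) fell, as Ccnd1 (-2.04) did, and 2 rose, the cycle inhibitor Cdkn1a (2.19) and the cyclin Ccnd2 (1.97). Without the LPS once array A these 2 counts were 12 and 5, and under the 75th percentile scaling 5 and 6.

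Lysosome and autophagy genes were called lower far more often than higher, although most members were not called. Of 68 lysosomal hydrolases and membrane proteins 17 (11) fell and 1 rose (median -0.69), and of 46 autophagy genes 18 (9) fell and 1 rose (median -0.78). With no limit on size, 61 lysosomal members and 34 autophagy members were lower in all 3 pairs, as were 32.8% of all genes and 55.7% of bright genes, to which most of these members belong. Sgsh, a sulfatase that degrades heparan sulfate, went from 544, 611 and 639 to 50.2, 56.8 and 59.9 (-3.10 ± 0.24). Cln8, which carries lysosomal enzymes out of the endoplasmic reticulum, went from 832, 815 and 902 to 199, 121 and 146 (-2.36 ± 0.14). Npc1, which exports cholesterol from the lysosome, went from 1412, 1526 and 1764 to 404, 629 and 726 (-1.43 ± 0.20). The replicates were close to each other for Sgsh and Cln8 and more spread for Npc1, where replicate A was lowest. Ulk1, the kinase that starts autophagy, went from 638, 734 and 585 to 91, 149 and 118 (-2.32 ± 0.20), Uvrag, which drives maturation of the autophagosome, from 1186, 1585 and 1325 to 116, 346 and 333 (-2.42 ± 0.32), and Tfeb, the factor that switches on lysosomal genes, from 485, 393 and 470.1 to 109.6, 154 and 192 (-1.5 ± 0.19). The lysosomal riser was the cation channel Mcoln2, from 191, 272 and 258 to 2112, 2233 and 1487 (2.93 ± 0.43), and the autophagy riser the receptor Tax1bp1 (1.13), joined by another without the untreated or the LPS once array C, which gives 2, and under the 75th percentile scaling 3 autophagy genes rose. Among vesicle sorting genes, 14 (10) of 65 sorting nexins and Vps proteins were lower (21.5%) and 3 higher. Of 75 Rab GTPases 13 (11) were lower (17.3%, median change -0.07) and 3 higher. Lower calls made up 9.25% of all genes and 17.3% of bright genes, the same share as in the Rab GTPases.

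Tfeb and its relatives bind the palindrome CACGTG, the E-box. It is shown in capitals for the 2 falling lysosome and autophagy genes with the largest changes that hold it: Sgsh (chr11:119355511-119355599, minus strand) and Zfyve26 (chr12:79296339-79296464, minus strand), an adaptor of the autophagosome (-2.14).
Sgsh: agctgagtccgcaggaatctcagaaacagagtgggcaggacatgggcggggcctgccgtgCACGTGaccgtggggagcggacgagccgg
Zfyve26: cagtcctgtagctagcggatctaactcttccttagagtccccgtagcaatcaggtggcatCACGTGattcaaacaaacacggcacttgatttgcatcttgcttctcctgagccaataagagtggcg
The E-box was present in 23 of the 93 promoters of lysosome and autophagy genes (24.7%) and in 5 of the 30 of those that fell (16.7%). It was in 11.9% of the promoters of all falling genes, 11% of bright genes that were not called, 9.84% of rising genes and 9.02% of all promoters. Within these lists it was no more frequent in the members that fell than in the lists as a whole.

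Some of the genes for burning fat fell, and none of those for the later steps of respiration was called. Of 49 fatty acid oxidation and peroxisome genes 18 (11) fell and none rose (median -0.68; 2 higher at an unadjusted limma p under 0.05). Cpt1a, the entry step of fatty acids into mitochondria, went from 1833, 2019 and 2200.0 to 542, 402 and 417 (-2.12 ± 0.17). Crot, which hands shortened chains from peroxisomes to mitochondria, went from 438, 429 and 453 to 69.8, 71.1 and 30.1 (-2.70 ± 0.28). Acadm, the dehydrogenase for chains of medium length, went from 1680.3, 1809 and 1762 to 679, 534 and 552 (-1.56 ± 0.15). The LPS once arrays of all 3 lay below every untreated array. None of 29 citric acid cycle genes and none of 72 respiratory chain and ATP synthase subunits was called in either direction, with median changes of -0.48 and -0.37. At an unadjusted limma p under 0.05, 18 and 48 members were lower and 2 and 1 higher (over bright genes 45.1% were lower and 19.4% higher at that limit), with extremes of -0.99 and 0.97 in the cycle and -0.88 and 0.69 in the chain. Leaving out 1 array gave at most 2 falling cycle genes (without LPS once C), 1 rising cycle gene (without untreated C or LPS once A) and 1 falling chain subunit (without LPS once A). Over all bright genes the median change was -0.27.

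Lipid synthesis and handling were mixed. Liver X receptor targets and fatty acid synthesis genes counted 10 (8) of 37 lower and 3 higher, and sphingolipid and phospholipid genes 11 (6) of 50 lower and 6 higher (6 each under the 75th percentile scaling). The desaturase Fads1 went from 1462, 1776 and 1748 to 172, 254 and 226 (-2.86 ± 0.17). Lpin1 (-2.53), Scd2 (-2.08) and the cholesterol exporter Abcg1 (-1.75) also fell. Cerk, which phosphorylates ceramide, was among the 40 largest decreases (-4.02), while the sphingosine kinase Sphk1 rose (2.40).

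**Figure D3:**
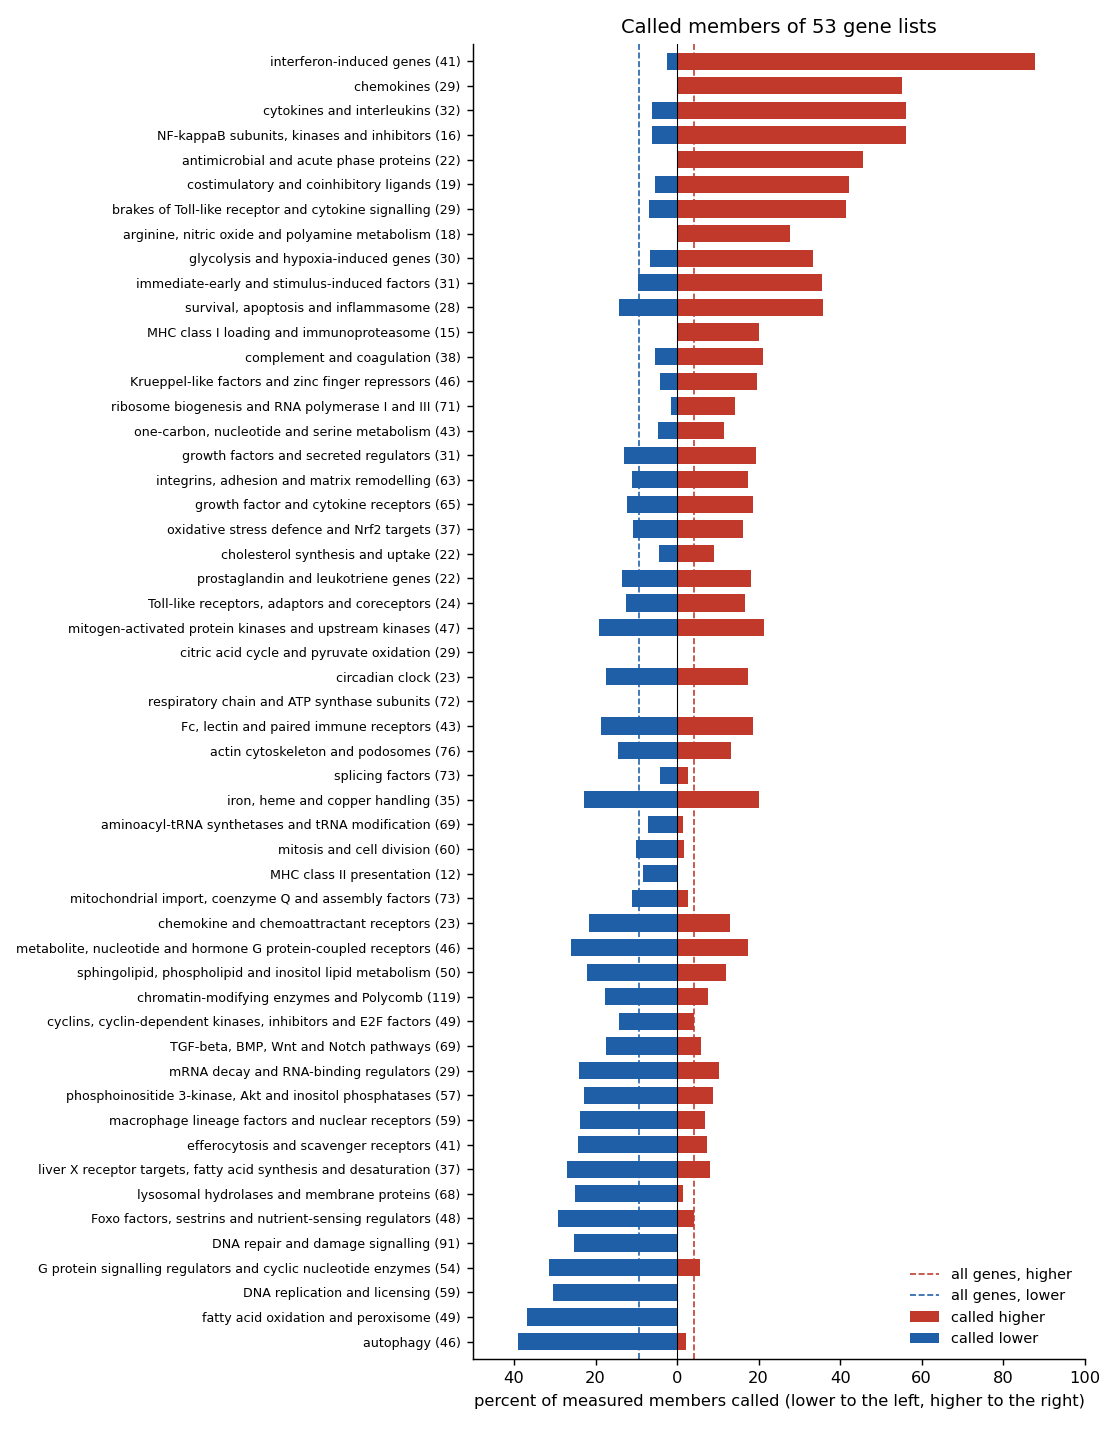
Percent of measured members called higher and called lower in each of 53 gene lists, with dashed lines at the percentages over all genes (4.18 and 9.25). Interferon-induced genes, NF-kappaB proteins, cytokines and chemokines stand at the top for increases, and autophagy, fatty acid oxidation, G protein regulators and DNA replication at the top for decreases.

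Among genes for the uptake of dead cells and immune receptors some members fell and others rose. Mertk, the receptor that tethers dying cells, went from 1912, 1320.2 and 1775 to 221, 85.5 and 105 (-3.54 ± 0.37), and Gas6, the ligand that bridges it to them, fell too (-1.41). Of 41 efferocytosis and scavenger receptor genes 10 (7) fell and 3 rose, the scavenger receptors Olr1 (4.42), Marco (2.53) and Msr1 (1.45). Cd300lb, a receptor for phosphatidylserine and other lipids, went from 4411, 4584 and 4486 to 487, 134 and 130.4 (-4.34 ± 0.37), and its relative Cd300a fell (-2.57). Clec4e (4.16), which senses mycobacterial glycolipid, and the inhibitory Fc receptor Fcgr2b (3.00) rose. Of 43 Fc, lectin and paired receptors 8 rose and 8 (5) fell; under the 75th percentile scaling 11 rose and 5 fell.

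Further lists held members of either direction, picked here after their values were seen. Prostaglandin and leukotriene genes counted 4 higher and 3 (2) lower of 22, and iron, heme and copper genes 7 and 8 (4) of 35 (4 higher without the untreated array B). Complement and coagulation genes counted 8 and 2 of 38 (4 lower without the LPS once array B), and survival and death genes 10 and 4 (3) of 28. Clock genes counted 4 and 4 of 23 (2 higher without the untreated array B, 7 lower without the LPS once array B). In prostaglandin metabolism the synthases Ptgs2, from 168, 481 and 29.4 to 5499.7, 7905 and 7655 (5.43 ± 0.71), and Ptges (5.51) rose, while the degrading enzyme Hpgd went from 2399.7, 1783 and 2949.8 to 479.6, 369.7 and 690.2 (-2.19 ± 0.48) and the prostaglandin D synthase Hpgds fell (-1.78). In iron handling the importer Slc39a14 went from 239, 314 and 193 to 3299.8, 5053 and 4121 (3.98 ± 0.19) and the exporter Slc40a1 from 1162, 693 and 1244 to 62.6, 167 and 169 (-2.88 ± 0.78, limma adjusted p = 0.0216). For Slc40a1 both groups varied, and the least bright untreated array, B, still exceeded the brightest LPS once array; the call was lost without the untreated array A (-3.02) or C (-2.33) or the LPS once array A (-2.05). In coagulation, tissue factor F3 (2.37) and the protease inhibitor Serpinb2 (4.91) rose and the anticoagulant thrombomodulin, Thbd, fell (-2.38). In cell death the survival genes Birc3 (1.70), Cflar (2.44) and Gadd45b (3.73) rose, whereas the death gene Bmf went from 407, 541 and 537 to 17.2, 22 and 23.5 (-3.78 ± 0.21) and Casp9 fell (-2.46); the death receptor Fas rose (3.03). In the circadian clock the output factors Dbp, from 670.2, 373 and 404 to 44, 23 and 28.1 (-3.36 ± 0.30), and Tef (-1.82) fell and the repressor Nfil3, which binds the same element as Dbp, rose (2.69).

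**Figure D4:**
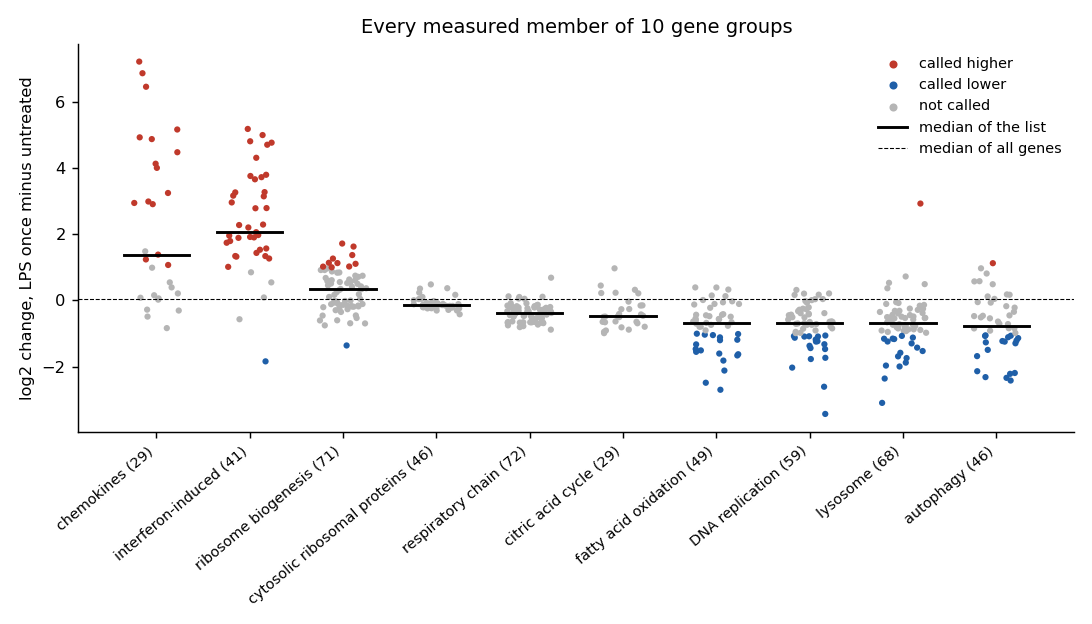
Log2 change (LPS once minus untreated) of every measured member of 10 gene groups, with a black bar at the median of each group and a dashed line at the median of all genes. Interferon-induced genes lie above the line almost throughout, lysosome, autophagy and fatty acid oxidation genes mostly below it, and respiratory chain subunits form a narrow band just below it.

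The lists and symbol families named 424 of the 761 rising genes (55.7%) and 750 of the 1683 falling ones (44.6%), against 39% of all genes measured. None of the 54 lists and 48 families had as large a share of falling members as interferon-induced genes had of rising ones. Further families with more decreases than increases were F-box proteins, the substrate receptors of ubiquitin ligases, with 10 (7) of 67 lower and 1 higher (2 without the untreated array A), Kelch proteins, with 10 (7) of 49 lower and none higher (6 higher at an unadjusted limma p under 0.05), and genes of the centrosome and cilium, with 30 (18) of 226 lower and 4 higher. Of the 218 transmembrane proteins known only as Tmem genes 31 (22) fell and 3 rose. The falling shares of these families ran from 13.3% (centrosome and cilium) to 20.4% (Kelch), against 9.25% of all genes and 17.3% of bright genes. Among the 40 largest decreases, several stand in none of the groups described, such as Susd3 (-4.50), Cytip (-4.35), which tunes integrin adhesion, the homeobox factor Hhex (-3.78) and Pdxk (-3.53), which makes the active form of vitamin B6.

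Genes with more than 1 bright probe set allow a check inside the arrays. A gene can have several other bright probe sets, and each count here needs at least 1 of them. Of 281 rising genes with another bright probe set, such a set was called the same way in 245, had the opposite sign in 7 and was called the opposite way in 0. Of 475 falling genes such a set was called the same way in 349, had the opposite sign in 17 and was called the opposite way in 0.

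The pretreated and restimulated arrays gave the same genes smaller median changes. They do not enter the first change itself, but they share in the fit's estimate of spread behind the calls. The genes were chosen for a large first change, and the part of that choice in the smaller second change was not tested. The second change also depends on the pretreated level, which is not given here. Over the 761 rising genes the median change from pretreated to restimulated was 0.34, with 0.63, 0.31 and 0.13 in pairs A, B and C, and over the 1683 falling genes it was -0.70, with -0.65, -0.31 and -1.15. Over all bright genes the median was -0.22, with -0.07, -0.06 and -0.55 in the pairs, so that replicate C stood apart. Without the restimulated replicate C the medians were 0.49 for rising, -0.51 for falling and -0.08 for all bright genes. The second change was below 0 for 99.2% of the falling genes and above 0 for 77.8% of the rising ones; it was above 0 for 23.9% of all bright genes. Of the interferon genes shown above, Gbp2 changed by -0.02 and Ifit1 by 0.32 on restimulation, while Il6 changed by 4.03; among receptors Cxcr4 changed by -2.93 and Cnr2 by -2.67. The 30 largest increases, 5.0 to 7.64 in the first response, had a median second change of 2.19, and the 40 largest decreases, -5.76 to -3.41, one of -1.60.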

How the data were processed

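Total RNA from 12 cultures was measured on Affymetrix arrays of 45101 probe sets, labelled with biotin per the labels' protocols. The authors deposited linear intensities, already summarised to 1 value per probe set; neither the labels nor the files name the program or the scaling behind them. Precision is limited by the number of arrays, 3 per group, described in the labels as biological replicates. The 64 control probe sets were set aside; 34945 probe sets carry 1 gene symbol in GEO's platform annotation, 932 several and 9160 none. Symbols were updated by Entrez identifier for 34741 probe sets, and each of 18193 genes was read from its brightest probe set over all arrays (9010 genes had more than 1).

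Values were tested as log2(intensity + 16) with limma 3.58.1 in R 4.3.3, over all 12 arrays with 4 group means and the replicate letter as a block, which leaves 6 residual degrees of freedom. The letters pair the arrays, a reading drawn from the data, since deviations from the group means correlated over genes at 0.306 to 0.7 in the 18 same-letter pairs. The 36 other pairs, at -0.475 to -0.0275, are no separate evidence, since deviations from a group mean cancel within the group. Adjusted p-values are Benjamini-Hochberg over all genes. The fit was tested on simulated data. Alternatives were the scaling, the pseudocount, the block, the probe set rule, the fold limit and leaving out each array.

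The comparison, the 54 gene lists, the 48 symbol families and the motifs were chosen with earlier results of these data known, so their counts are descriptions; 1 list and 1 family are not reported here. Genes named are the 30 largest increases and 40 largest decreases among called genes whose groups do not overlap, up to 5 called members per list and direction, and members of the lists given with their values. Promoters are RefSeq's, assembly GRCm38.p6, and intervals of shares cover counting error only.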

Additional observations from a re-analysis of the deposited data

Results flagged for a closer look

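Between the first and the second exposure the response itself differed for the following genes, by the interaction term of the same limma fit (second response minus first, on the log2 scale). The genes were chosen for a large first response, which is also subtracted in that term. The term also depends on the pretreated level, which is not given here, so a small second response does not show a low level. It includes the restimulated replicate C, whose 75th percentile of intensity was 119.9, against 181.1 and 192.1 in restimulated A and B. Values without that array are not given. Of the 30 largest increases, the 5 with the largest differences were Rnd1 (-6.19), U90926 (-6.18), Shisa3 (-6.0), Saa3 (-5.81) and Mmp13 (-5.79). Of the 40 largest decreases they were Sesn1 (3.86), Gpr65 (3.79), Cd300lb (3.06), Zfp36l2 (2.96) and N4bp2l1 (2.87).

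Probe sets left out of the comparison also changed. Of the 932 probe sets with several symbols 39 were higher and 58 lower after LPS, and of the 9160 with no symbol 178 were higher and 267 lower. For comparison, of the 34945 with a single symbol 1432 were higher and 2590 lower. Relative to their number, probe sets with no symbol were called less often in both directions than those with a single symbol. Those with several symbols were called higher about as often and lower somewhat less often.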

How the results depend on the processing

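With the replicate letter left out of the fit, 709 genes were higher and 1655 lower, so the block changed neither count by over 1.5 times. Scaling to a common 75th percentile lowered the count of repressed genes to 1051, and to 491 among those in a list or family; why the scalings differ was not tested. Without a fold limit 2518 genes were higher and 4019 lower (1069 and 1708 in a list or family), and with a 4-fold limit 307 and 317 (191 and 161). Leaving out 1 array at a time gave 685 to 789 higher genes, lowest without LPS once C and highest without LPS once B, and 1458 to 1793 lower genes, lowest without untreated C and highest without untreated A; in a list or family these were 387 to 431 and 665 to 791. Over the same fits the median second response was 0.26 to 0.49 for rising and -0.85 to -0.51 for falling genes. A pseudocount of 1 gave 842 higher and 1954 lower, and of 64 gave 657 and 1149. The mean of a gene's probe sets gave 693 and 1153. Under it Casp9 (-0.76), Gas6 (-0.74), Tef (-0.59) and Etv3 (0.92) lost their calls, and Hpgd lost its own (-2.18) only under quantile normalization without the block. With only the 250 bases before the start searched, the share with a kappaB site over all promoters was 8.39%, with the interferon element 2.63% and with AP-1 5.58%; the E-box share was 7.56% over all, 7.42% for rising and 10.2% for falling genes. Among the named genes that were called, none reversed under any of the 26 alternatives. A gene with an intensity under 50 on untreated arrays is close to background, so that a decrease of it was not detectable here.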
